A study of Mus musculus with 10 samples.

Results

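Complement is a cascade of plasma and tissue proteins that tags surfaces and recruits leukocytes. The classical pathway starts when C1q engages the proteases C1r and C1s, which cleave C4 and C2, and the alternative pathway amplifies the cleavage of C3 through factor B. Soluble and membrane regulators stop each step. The liver makes most circulating complement, while kidney epithelium and endothelium make some of it locally and respond to interferons and other cytokines.

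The 6 genes described here are C1ra and C4b of the classical pathway, C3 and Cfb (factor B) of the central and alternative steps, and the regulators Serping1 (C1 inhibitor) and Cd55 (decay-accelerating factor). They were chosen by symbol as complement components and regulators, with earlier results of these data known. All 6 were found among the 12934 rows of the normalized count table. The values come from RNA sequencing of glomeruli isolated at 17 weeks of age from wildtype mice of the inbred strain DBA/2J, labelled DKD-susceptible (diabetic kidney disease) and known to lack functional complement C5. In the diabetic Esm-1 group (n = 3), mice aged 7 weeks received a hydrodynamic injection of plasmids for mouse Esm-1 and for the Sleeping Beauty transposase. Streptozotocin, which destroys pancreatic beta cells, followed from 8 weeks, and from 4 weeks after that a 60% high-fat diet for 5 weeks. The diabetic saline group (n = 4) received saline in place of the plasmids and the same streptozotocin and diet, and the non-diabetic saline group (n = 3) received saline, then vehicle, with no high-fat diet named for it. No group received plasmid without Esm-1, or Esm-1 without diabetes, so that plasmid and Esm-1, and diabetes and diet, cannot be told apart. The labels do not say that each library is 1 animal, so p-values measure the spread between these libraries, which may be technical in part.

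The libraries held 3931712 to 11300629 recovered reads, of which 91.1% to 92.8% fell on Rn45s, Lars2 and Mir6236, leaving 338549 to 962321 reads for all other genes. One read was worth 0.619 to 1.77 normalized counts, and the 6 complement genes rested on 1 to 154 reads per library. Esm1 itself, the gene on the plasmid, had 6.51, 3.81 and 0 normalized counts in diabetic Esm-1 libraries, against 3.20, 0.925, 1.72 and 1.77 in diabetic saline and 2.48, 1.81 and 0 in non-diabetic saline. These glomerular values overlapped between all groups and do not check the injection, which reaches mainly the liver. Podocyte, endothelial and mesangial markers had values in every library, as the tissue label implies, but their sums differed between the groups and are given below beside the complement results.

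The plot of normalized counts by group shows the 6 genes in all 10 libraries. C3 and C4b had their highest means in diabetic Esm-1 glomeruli, as did Cfb, whereas C1ra, Serping1 and Cd55 had theirs in diabetic saline glomeruli.

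**Figure D1:**
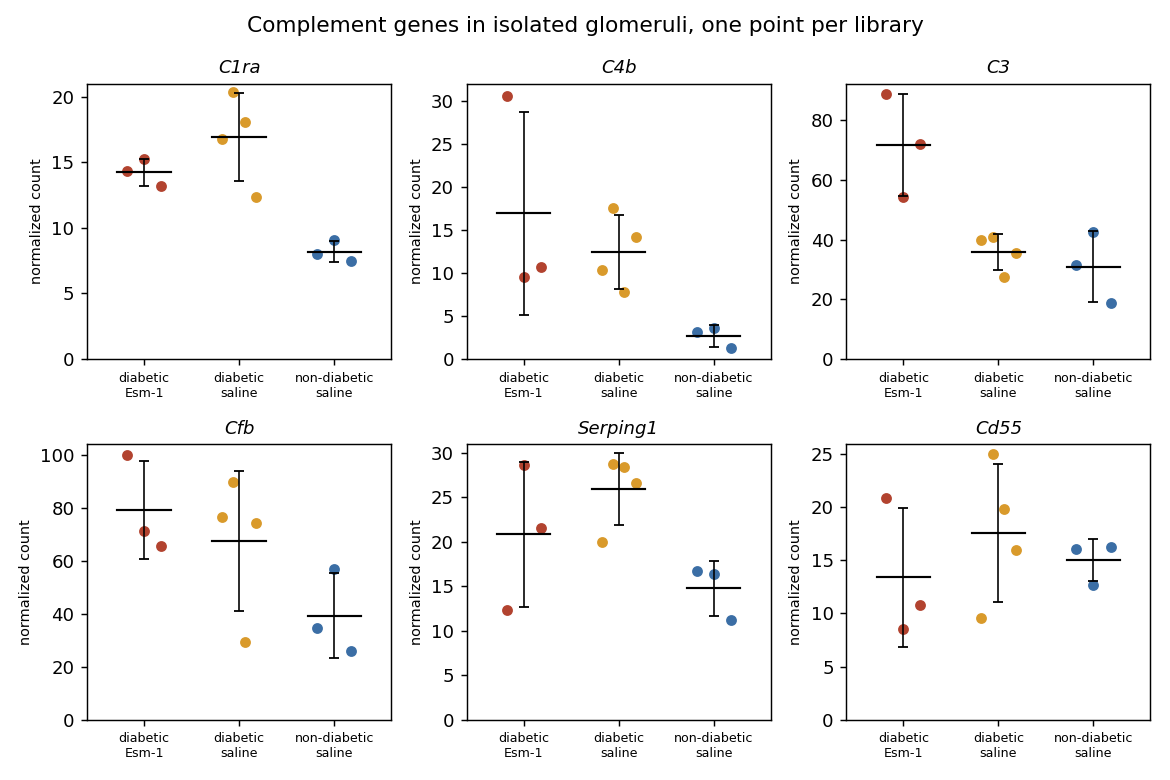
Normalized counts of the 6 complement genes (vertical axis, from 0) in each library of the 3 groups; horizontal lines are means and error bars SDs. C3 lay at 54.4 to 88.6 in diabetic Esm-1, above all libraries of both saline groups, and C4b at 1.25 to 3.63 in non-diabetic saline, below all libraries of both diabetic groups.

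Promoter sequences of C3 and C1ra are shown because these genes had their highest means in different groups. RefSeq (GRCm38.p6) gave sequences from 250 bases before to 50 after the start for 3 of the 6 members, C3, C1ra and Cd55. Capitals mark matches, on either strand, to the interferon-gamma activated sequence TTCNNNGAA, to the interferon-stimulated response element (GAAA and GAAA with 2 bases between), to the C/EBP motif TTGCNNAA or to the NF-kappa B motif (GGGA and TTCC with 2 bases between). C3 lies at chr17:57228087-57228386 on the minus strand and C1ra at chr6:124512371-124512670 on the plus strand.
C3: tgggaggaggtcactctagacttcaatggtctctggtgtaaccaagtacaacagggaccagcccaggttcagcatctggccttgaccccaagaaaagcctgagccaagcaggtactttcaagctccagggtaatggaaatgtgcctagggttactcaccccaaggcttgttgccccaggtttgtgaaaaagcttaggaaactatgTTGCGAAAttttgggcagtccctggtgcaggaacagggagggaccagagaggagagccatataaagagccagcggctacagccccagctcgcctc
C1ra: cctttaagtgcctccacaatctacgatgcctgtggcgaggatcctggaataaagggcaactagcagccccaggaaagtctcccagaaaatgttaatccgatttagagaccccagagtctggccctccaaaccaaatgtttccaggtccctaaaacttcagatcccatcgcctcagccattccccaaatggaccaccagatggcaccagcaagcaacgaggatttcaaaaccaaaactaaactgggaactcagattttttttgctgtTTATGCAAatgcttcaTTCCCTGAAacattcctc

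The C3 sequence held 1 match, to the C/EBP motif, from base -45 to -38 relative to the start. The C1ra sequence held a C/EBP match on the minus strand at bases 17 to 24 and an interferon-gamma activated sequence at bases 33 to 41 after the start, without overlap between them. The Cd55 sequence held no match to the 4 motifs. Among 32851 promoter sequences of the same length, 10.8% held the C/EBP motif, 8.30% the interferon-gamma activated sequence, 3.44% the response element and 1.47% the NF-kappa B motif. A match of letters is not evidence of binding.

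Diabetic saline glomeruli were first set against non-diabetic saline ones, for the changes that go with streptozotocin and diet. Of the 6 genes, C4b passed the test and 5 did not, while 5.53% of all 8239 genes tested were called, 3.73% higher and 1.81% lower (limma across all genes, Benjamini-Hochberg adjusted p under 0.05, two-sided). All 6 log2 differences were positive, as were 49.2% of those over all genes, with a median of 0.75 beside -0.01 over all genes tested. Among 8 other complement genes tested, described below, 6 differences were positive and the median was 0.19. Folds and log2 differences are on the scale of the normalized count plus 1, so the change of genes with low values is understated.

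C1ra encodes the C1r protease of the classical pathway. It had 16.8, 20.4, 18.1 and 12.4 normalized counts in the diabetic saline libraries, against 8.05, 9.07 and 7.48 in the non-diabetic saline libraries. Every diabetic library was above every non-diabetic one, a pattern that 8.19% of all genes tested showed in this direction and 8.34% in the other. The log2 difference was 0.94 ± 0.31 (SE) and did not pass (adjusted p = 0.0752). As 0 of the 3 non-diabetic libraries had 10 normalized counts, C1ra passed the filter on low values only through the diabetic libraries. Its partner C1s1, which encodes the C1s protease and lies next to C1ra in the RefSeq gene order, had 39.8 to 47.8 normalized counts in diabetic saline, against 23.7 to 34.7 for the non-diabetic libraries, again without overlap and without passing (log2 difference 0.56 ± 0.24, adjusted p = 0.204). In the diabetic Esm-1 group C1s1 had 35.8, 42.0 and 20.4 normalized counts. Replicates 1 and 2 were above all non-diabetic saline libraries and replicate 3 was below them. The C1s1 groups overlapped there, with a log2 difference of -0.47 from diabetic saline (adjusted p = 0.496) and 0.09 from non-diabetic saline (adjusted p = 0.867). Whether C1s1 and C1ra differed in these changes was not tested. C1s1 was singled out after its values were seen.

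C4b encodes complement C4, the substrate of C1s and a part of the classical C3 convertase. It had 10.4, 17.6, 7.75 and 14.2 normalized counts in diabetic saline, against 3.10, 3.63 and 1.25 in non-diabetic saline, and the groups did not overlap. C4b rose 3.71-fold in diabetic saline (log2 difference 1.89 ± 0.47, limma adjusted p = 0.0181). The non-diabetic values stand for 5, 4 and 1 reads, and the ratio of summed reads per unit of depth was 4.25 (exact 95% counting interval 2.13 to 9.42). C4b, too, passed the filter on low values only through the diabetic libraries.

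The C4b call did not hold when C4b was counted together with C4a, a near copy that shares part of its sequence. How reads were divided between them is not stated and was not tested. Of the 50-base windows in the annotated C4b transcript, 35.2% occur unchanged in C4a transcripts. C4a had 1.60, 0.925, 0 and 3.54 normalized counts in diabetic saline, against 7.43, 1.81 and 2.49 in non-diabetic saline. Counted as 1 gene, the pair had 12.0, 18.5, 7.75 and 17.7 normalized counts in diabetic saline and 10.5, 5.44 and 3.74 in non-diabetic saline. The groups then overlapped, and the log2 difference was 1.02 (adjusted p = 0.199), an alternative chosen after seeing the data. Leaving out replicate 3 of non-diabetic saline also ended the C4b call (limma adjusted p = 0.0688), as did leaving out replicate 2 of diabetic saline (adjusted p = 0.0585). It ended as well without both libraries whose sample number in the title is under 100, diabetic saline replicate 4 and non-diabetic saline replicate 3 (adjusted p = 0.105). Summing C1ra with its near copy C1rb, with which it shares 48.0% of such windows, gave a log2 difference of 1.01 (adjusted p = 0.0516).

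C3, the protein on which all pathways converge, did not pass between the saline groups. It had 40.0, 40.7, 27.6 and 35.4 normalized counts in diabetic saline, against 31.6, 42.6 and 18.7 in non-diabetic saline, and the groups overlapped (log2 difference 0.27 ± 0.25, adjusted p = 0.621). Cfb, the serine protease of the alternative C3 convertase, had 76.8, 89.8, 29.3 and 74.4 in diabetic saline, against 34.7, 57.1 and 26.2 in non-diabetic saline. Of these, 3 diabetic libraries were above all non-diabetic ones and replicate 3 lay among them (log2 difference 0.72 ± 0.31, adjusted p = 0.196). Without diabetic saline replicate 3 Cfb passed (log2 difference 1.08, adjusted p = 0.0176), and it also passed with a term for the proximal tubule markers (log2 difference 0.95, adjusted p = 0.00797). That library had the lowest proximal tubule sum of its group, 645 normalized counts, and whether this bears on its Cfb value was not tested.

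Serping1 encodes the inhibitor of C1r and C1s. It had 19.998, 28.7, 28.4 and 26.6 normalized counts in diabetic saline, against 16.7, 16.3 and 11.2 in non-diabetic saline, with no overlap (log2 difference 0.78 ± 0.29, adjusted p = 0.132). Cd55, which dissociates C3 convertases on cell membranes, had 9.60, 25.0, 19.8 and 15.9 in diabetic saline, against 16.1, 12.7 and 16.2 in non-diabetic saline. The Cd55 groups overlapped, with a log2 difference of 0.15 (95% interval -0.58 to 0.88, adjusted p = 0.864).

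**Figure D2:**
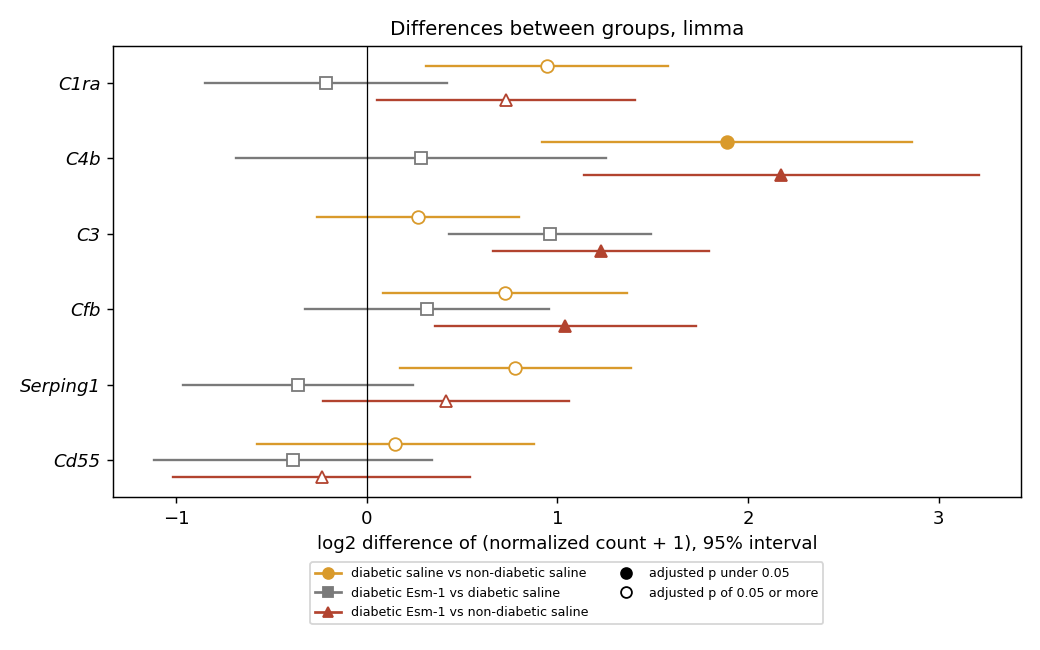
Log2 difference of the normalized count plus 1 (horizontal axis) with its 95% interval for each of the 6 genes and 3 comparisons; filled symbols passed at an adjusted p under 0.05. C4b passed in both comparisons with non-diabetic saline, C3 and Cfb in that of diabetic Esm-1, and no gene in that of diabetic Esm-1 with diabetic saline.

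The comparison of diabetic Esm-1 with diabetic saline asked what the Esm-1 plasmid changed in diabetic mice. None of the 6 genes passed, and limma called 0% of the 8239 genes tested, with 899 genes at an unadjusted p under 0.05. On the recovered reads edgeR called 0 genes. DESeq2 called 32 of the 1530 genes to which it gave an adjusted p, and it gave none to any of the 6, so that it could not call them. This comparison shares the diabetic saline libraries with the one above, so that a value high in that group moves both.

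C3 had the largest difference of the 6. It had 88.6, 54.4 and 71.8 normalized counts in diabetic Esm-1, against 40.0, 40.7, 27.6 and 35.4 in diabetic saline. All 3 Esm-1 libraries were above all 4 saline libraries, as in 3.73% of all genes tested, while 5.47% were below without overlap. The log2 difference was 0.96 ± 0.25 (95% interval 0.43 to 1.49), or 1.95-fold, and did not pass (limma adjusted p = 0.163, and 0.0835 to 0.919 over the alternatives). Proximal tubule markers summed to 1246 to 1910 normalized counts in diabetic Esm-1 and 645 to 1529 in diabetic saline. With a term for these markers the log2 difference of C3 was 0.61 (adjusted p = 0.178).

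The other members went either way without passing, and 3 of the 6 differences were positive, beside 50.7% over all genes. C4b had 30.6, 9.54 and 10.8 normalized counts in diabetic Esm-1, against 7.75 to 17.6 in diabetic saline. Replicate 1 of diabetic Esm-1 was above all saline libraries and the other two lay among them (log2 difference 0.28 ± 0.47, adjusted p = 0.868). Without that library the sign turned (log2 difference -0.22), as it did with the proximal tubule term (-0.19). Cfb had 100.3, 71.5 and 65.8 in diabetic Esm-1, overlapping the 29.3 to 89.8 of diabetic saline (log2 difference 0.32, 95% interval -0.32 to 0.96), and its sign turned without diabetic saline replicate 3 (-0.04).

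C1ra had 14.3, 15.3 and 13.2 normalized counts in diabetic Esm-1, inside the 12.4 to 20.4 of diabetic saline (log2 difference -0.21, 95% interval -0.85 to 0.42). Serping1 had 12.4, 28.6 and 21.5 in diabetic Esm-1, against 19.998 to 28.7 in diabetic saline (log2 difference -0.36, 95% interval -0.97 to 0.24). Cd55 had 20.8, 8.58 and 10.8 in diabetic Esm-1, against 9.60 to 25.0 in diabetic saline (log2 difference -0.39, 95% interval -1.11 to 0.34). The intervals of C1ra, Serping1 and Cd55 reach down to 0.555, 0.512 and 0.462 of the diabetic saline level, so the data do not show that these genes were alike in both groups.

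The level of C3 relative to C1ra within a library, which the scaling of libraries moves only through the added count of 1, separated these groups, as C3 alone did. The log2 ratio of C3 to C1ra, each plus 1, was 1.77 to 2.55 in diabetic Esm-1, 0.58 to 1.44 in diabetic saline and 1.22 to 2.12 in non-diabetic saline. The ranges of the diabetic groups did not overlap, while that of non-diabetic saline overlapped both. The pair of C3 and C1ra was chosen after the values were seen and was not tested. The ratio of Cfb to C3 overlapped between diabetic Esm-1 (-0.12 to 0.39) and diabetic saline (0.08 to 1.12). So did that of C4b to C4a (1.79 to 3.78 against 1.74 to 3.27).

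Set against non-diabetic saline, diabetic Esm-1 glomeruli differed by diabetes, diet and plasmid at once. C3, C4b and Cfb rose, 3 of the 6 genes, while 15.3% of all genes tested were called, 7.19% higher and 8.11% lower. C3, C4b, Cfb and C1ra were above without overlap, as were 15.4% of all genes, with 17.4% below, and 5 of the 6 differences were positive, beside 50.7% over all genes. The median log2 difference of the 6 was 0.89 beside 0.01 over all genes tested. Among the 8 other complement genes tested 4 differences were positive, with a median of 0.0078. The comparison shares libraries with both of the others.

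C3 rose 2.35-fold in diabetic Esm-1 (log2 difference 1.23 ± 0.27, adjusted p = 0.00384), with means of 71.6 ± 17.1 (SD, n = 3) and 31.0 ± 12.0 (SD, n = 3) normalized counts in diabetic Esm-1 and non-diabetic saline. It passed without each library in turn. C4b rose 4.52-fold (log2 difference 2.17 ± 0.50, adjusted p = 0.00494), with a ratio of summed reads per unit of depth of 6.79 (exact 95% counting interval 3.47 to 14.8). Of the 66 Esm-1 reads of C4b, 47 came from replicate 1, and without that library the read ratio was 3.55 (exact 95% counting interval 1.57 to 8.55) and the log2 difference 1.67 (limma adjusted p = 0.0482). Counted together with C4a, its log2 difference was 1.27 (adjusted p = 0.0692).

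Cfb rose 2.06-fold (log2 difference 1.04 ± 0.33, adjusted p = 0.0363), with means of 79.2 ± 18.5 and 39.3 ± 15.996 normalized counts in diabetic Esm-1 and non-diabetic saline (SD, n = 3 each). Its libraries did not overlap, but the call ended in 5 of the 10 fits that left out 1 library. Those were the fits without diabetic Esm-1 replicate 1 (adjusted p = 0.134), 2 (0.0849) or 3 (0.0681) and those without replicate 1 (0.101) or 3 (0.15) of non-diabetic saline. Scaling to a common total (adjusted p = 0.0703), limma without trend (0.13) and a term for title numbers under 100 (0.056) ended it too. Leaving out both libraries with such title numbers also ended the Cfb call. C1ra did not overlap and did not pass (log2 difference 0.73 ± 0.33, adjusted p = 0.148), and Serping1 overlapped (log2 difference 0.42, adjusted p = 0.418). Cd55 had a log2 difference of -0.24 (95% interval -1.01 to 0.54).

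Cell type markers moved with the groups. Podocyte markers summed to 2333 to 3590 normalized counts in diabetic Esm-1, 3595 to 5482 in diabetic saline and 5736 to 8200 in non-diabetic saline, with no overlap between groups. Endothelial markers summed to 1243 to 1582, 1678 to 2356 and 2427 to 2972 in the same order of groups, and mesangial markers to 2240 to 2786, 2688 to 4706 and 4051 to 4353. In diabetic Esm-1 against non-diabetic saline, limma called 14 of 15 podocyte, 12 of 14 endothelial and 7 of 11 mesangial genes lower. None was called higher, and 8.11% of all genes tested were called lower. Between the saline groups 5, 2 and 1 of them were called lower and 1 mesangial gene higher, beside 1.81% and 3.73% of all genes tested. In bulk samples fewer cells of a type and less RNA per cell cannot be told apart. A term was fitted for the averaged markers of podocytes, endothelium and mesangium, which runs nearly along the groups. With it none of the 6 genes passed in any comparison. The log2 differences of C3, C4b and Cfb between diabetic Esm-1 and non-diabetic saline were then 1.37, 3.10 and 1.11 (limma adjusted p = 0.542 for C3 and 0.398 for C4b). As the term follows the groups, the parts of group and markers in these values cannot be told apart.

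Markers of parietal epithelium, the cells that line Bowman's capsule, summed to 1043 to 1153 normalized counts in diabetic Esm-1, 888 to 1127 in diabetic saline and 562 to 947 in non-diabetic saline, and their part in the complement results was not tested. Markers of the distal nephron summed to 3125 to 5741 in diabetic Esm-1, 2951 to 4493 in diabetic saline and 1395 to 3462 in non-diabetic saline. Of the 11 distal nephron genes, 5 rose in diabetic Esm-1 and 4 in diabetic saline, each against non-diabetic saline, and none fell. Over all genes tested, 7.19% and 3.73% were called higher in these comparisons. The part of distal nephron RNA in the complement results was not tested. Of 21 listed myeloid genes, 11 had values, and their sums were 140.1 to 180.4, 167.2 to 198.98 and 161.4 to 186.97 in the same order. Cd14 had the largest mean in each group (89.7, 104.8 and 89.6), and the sums hide genes that went opposite ways. Mrc1 had means of 25.7, 41.8 and 57.9, while Mpeg1, at low values, had 6.67, 4.66 and 0.828. Of 13 listed lymphocyte genes, 2 had values, and their sums were 2.39 to 13.4, 5.31 to 10.2 and 10.9 to 24.1. Of 15 listed liver genes, 4 had values, and their sums were 14.3 to 32.4, 16.4 to 29.6 and 4.95 to 14.5. The list included Alb, Apoa1 and Ttr, for which no value could be given. The part of myeloid, lymphocyte and liver RNA in the complement results was not tested. Interferon-stimulated genes summed to 2245 to 2737 in diabetic Esm-1, 2577 to 3942 in diabetic saline and 732 to 964 in non-diabetic saline. Of the 20 genes, limma called 14 higher in diabetic Esm-1 and 16 in diabetic saline, each against non-diabetic saline, and none lower. The part of interferon-stimulated genes in the complement results was not tested. Of the 36 exact permutation tests of such sums, none passed after Benjamini-Hochberg adjustment (lowest adjusted p = 0.274). With 4 against 3 libraries p cannot go below 0.0286, and with 3 against 3 not below 0.1. At these floors no sum could pass the adjustment on its own, so the tests do not show that the sums were alike.

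**Figure D3:**
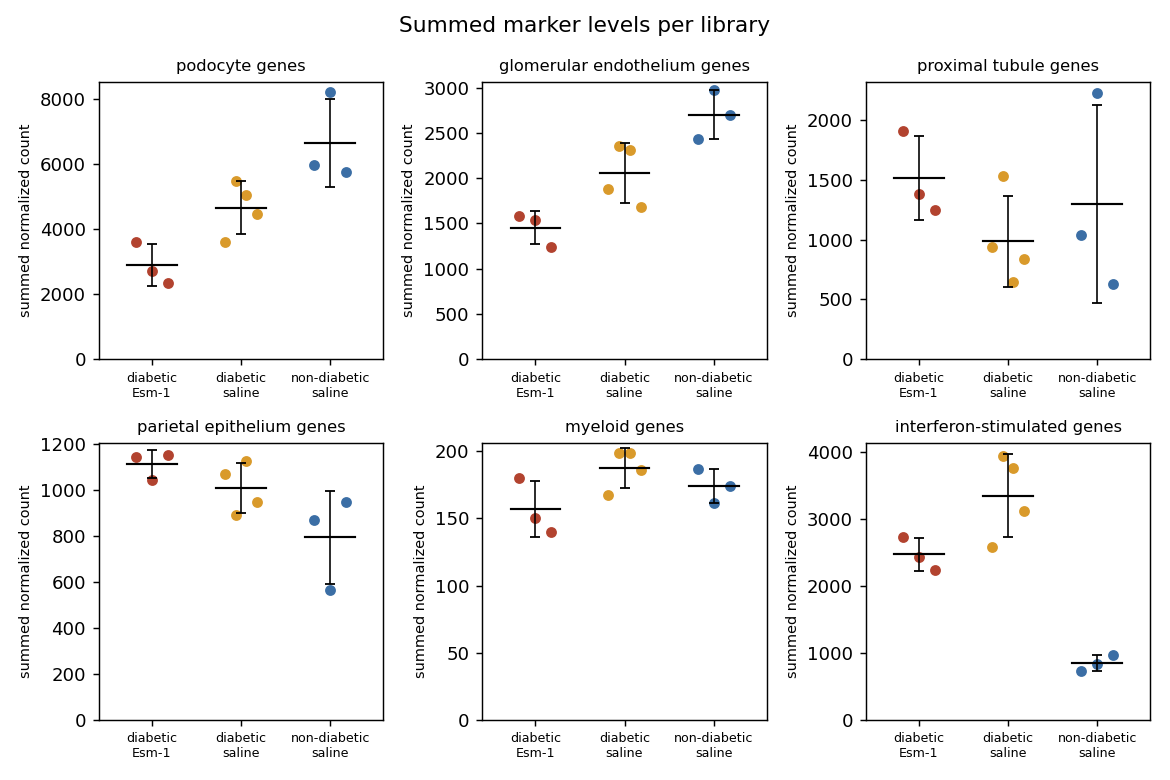
Summed normalized counts of 6 marker lists (vertical axes, from 0) in each library of the 3 groups; horizontal lines are means and error bars SDs. Podocyte sums were lowest in diabetic Esm-1 and highest in non-diabetic saline, and interferon-stimulated sums were 2245 or more in every diabetic library and 964 or less in every non-diabetic one.

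The genes closest in pattern to each member were found among up to 2623 tested genes averaging 50 or more normalized counts, by the root mean square difference of centred log2 values over the 10 libraries. For C1ra they were H2-K1 (0.16), Parp14 (0.17) and Parp12 (0.18), beside a median of 0.52 over all candidates. For C4b they were Apob (0.41), Ifih1 (0.53) and Ifi204 (0.60), beside a median of 1.11. C3 and Cfb shared 2 of their closest 3, Galnt11 (0.33 from each) and C130074G19Rik (0.38 and 0.40). Rab11fip5 (0.36) was the other for C3 and Slc43a2 (0.41) for Cfb. Cadm4 (0.24), Vdac1 (0.26) and Ccnd1 (0.26) were closest to Serping1, and Stx11 (0.23), Serpinb6b (0.25) and Slc43a3 (0.28) to Cd55.

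Beyond the 6 genes, 56 other complement genes were listed, of which 21 had values and 8 passed the filter for testing. Between the saline groups none of the 8 passed, and between diabetic Esm-1 and diabetic saline none did. Between diabetic Esm-1 and non-diabetic saline 1 of the 8 rose and 1 fell, beside 7.19% called higher and 8.11% lower over all genes tested. No value could be given for the 7 listed genes of the terminal pathway, among them Hc, which encodes C5.

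Clu, which encodes clusterin, a fluid-phase inhibitor of the terminal complex, rose in diabetic Esm-1 relative to the non-diabetic libraries. Clu had 1087, 951 and 1044 normalized counts in diabetic Esm-1, against 766, 388 and 895 in non-diabetic saline (log2 difference 0.67 ± 0.21, adjusted p = 0.0372). Without replicate 2 of non-diabetic saline it did not pass (log2 difference 0.31, limma adjusted p = 0.232), nor without any 1 of the Esm-1 libraries (adjusted p = 0.0802 to 0.123). It did not pass with edgeR (adjusted p = 0.0513), DESeq2 (0.059), a common total (0.0625) or limma without trend (0.167) either, and its sign turned with the glomerular marker term (log2 difference -0.25). Between the saline groups Clu had a log2 difference of 0.51 ± 0.20 and did not pass (adjusted p = 0.153), but passed without non-diabetic saline replicate 3 (log2 difference 0.75, adjusted p = 0.037). Colec12, a membrane collectin of endothelial and other stromal cells, fell. It had 26.7, 16.2 and 8.38 normalized counts in diabetic Esm-1, 27.997, 49.98, 43.9 and 19.5 in diabetic saline and 39.0, 50.8 and 54.8 in non-diabetic saline. The log2 difference of diabetic Esm-1 from non-diabetic saline was -1.56 ± 0.35 (adjusted p = 0.00454). The means of the podocyte, endothelial and mesangial sums had the same order of groups. With the term that averages these 3 lists the sign turned (log2 difference 0.88, adjusted p = 0.698), and the part of any 1 cell type was not tested.

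The membrane regulators Cr1l and Cd59a had values in every library and did not pass in any comparison. Cr1l, the rodent regulator Crry, had 43.6 to 48.6 normalized counts in diabetic Esm-1, 38.9 to 56.0 in diabetic saline and 29.9 to 39.9 in non-diabetic saline (limma adjusted p = 0.243 for diabetic Esm-1 and 0.23 for diabetic saline, each against the non-diabetic libraries). Cd59a, the inhibitor of the membrane attack complex, had 25.4 to 33.5, 29.6 to 52.5 and 37.1 to 45.3 in the same order of groups.

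Genes with few reads were not tested. C1qa, a chain of C1q made mainly by macrophages, had 3, 8 and 0 reads in diabetic Esm-1, 2, 2, 3 and 0 in diabetic saline and 0 in each of the 3 non-diabetic saline libraries. Cfi, factor I, had 4, 1 and 0 reads in diabetic Esm-1, 0, 1, 4 and 1 in diabetic saline and 0 in each non-diabetic saline library. In these libraries a count of 0 allows a level of up to 3 reads, or 1.86 to 5.31 normalized counts, for counting error only. C2, the neighbour of Cfb and the partner of C4 in the classical convertase, had 2 to 9 reads, 1 to 6 reads and 4 to 7 reads per library in diabetic Esm-1, diabetic saline and non-diabetic saline, and Cfp, properdin, 0 to 5, 0 to 3 and 1 to 5 reads.

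**Figure D4:**
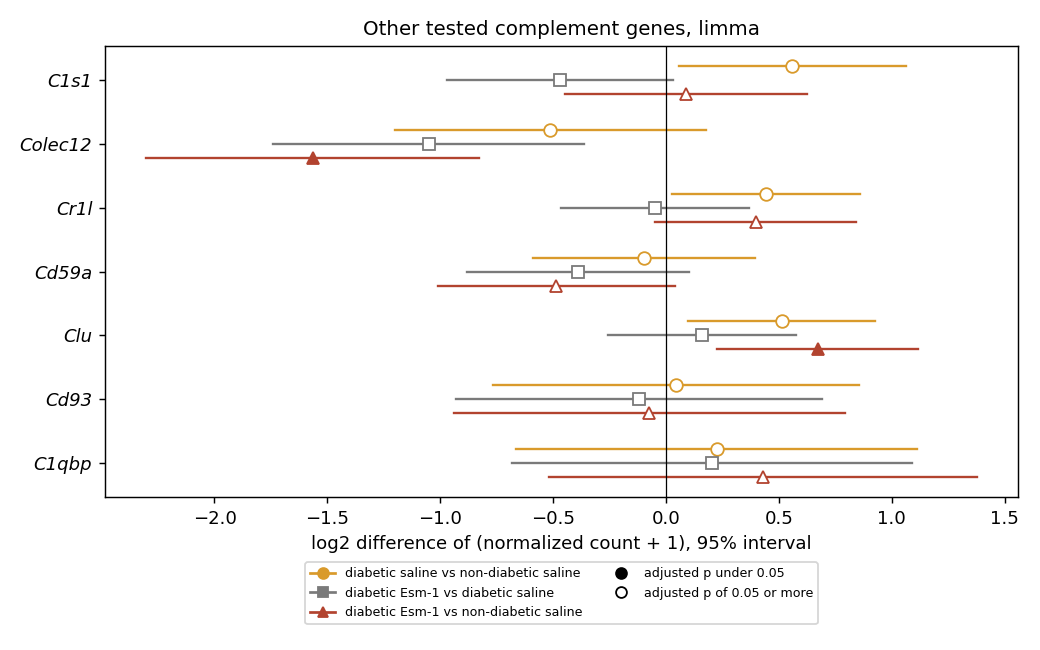
Log2 difference of the normalized count plus 1 (horizontal axis) with its 95% interval for 7 of the 8 other tested complement genes in 3 comparisons; filled symbols passed at an adjusted p under 0.05. In the limma fit Clu at 0.67 and Colec12 at -1.56 passed, both in the comparison of Esm-1 with the non-diabetic group.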

How the data were processed

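The 6 members and all gene lists were chosen with earlier results of these data known. The deposited values are a signal, normalized counts that the authors made before deposit, 1 column per library. Per the submitters' processing notes, which give no order or role, the tools were Trimmomatic 0.36, STAR 2.5.3a, DESeq2 1.28.1 and R 4.0.2 and the build mm9. For the counter, annotation and strandedness nothing is stated, so reads of overlapping or near-identical genes may be shared. The low values of each library are multiples of 1 step, and division by it gave whole reads for 100% of 129340 values (tolerance 0.001). No row has fewer than 7 reads in total.

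Genes with at least 10 normalized counts in at least 3 libraries were tested (8239, with 4695 below). One limma 3.58.1 fit (R 4.3.3) of log2(value + 1), all 10 libraries and 3 groups, with an intensity trend, gave 3 two-sided comparisons, adjusted by Benjamini-Hochberg over all genes tested. The fits were tested on simulated counts that gave all genes the same fixed dispersion, not estimated from these data. How the fits perform at the spread of the 6 members was not tested. Named genes were the 6 members, a fixed set of other complement genes and those past the threshold, Esm1, and for each member the 3 genes closest in pattern, a rule written with earlier results known; 1 gene it names is not reported here. Alternatives included edgeR 4.0.16 and DESeq2 1.42.0 on recovered reads. Counting near copies as 1 gene, and read ratios without each library, were added after seeing the data. Windows shared with near copies came from GENCODE M21 transcripts. Intervals and floors from reads cover counting error only.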

Additional observations from a re-analysis of the deposited data

How the results depend on the processing

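No paired analysis was possible because the labels give the groups no shared replicate numbers. Between diabetic Esm-1 and diabetic saline, DESeq2 called 32 genes and the proximal tubule term 174, against 0 in the limma fit, with 0 to 52 when 1 library was left out. Between diabetic Esm-1 and non-diabetic saline, 791 genes passed without the trend and 47 with the glomerular marker term, against 1260, with 626 to 1372 when 1 library was left out. Between the saline groups these were 224 and 200, against 456, with 289 to 475. Of the 6 genes, 2 passed between the saline groups without the trend and 2 with the proximal tubule term, while 0 passed with the glomerular marker term and 0 without both libraries with title numbers under 100 (0 to 2 when 1 library was left out). Between diabetic Esm-1 and non-diabetic saline 0 passed with the glomerular marker term (2 to 3 when 1 library was left out).

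The sign of some log2 differences turned, none of them past the threshold after the turn. With the glomerular marker term, between diabetic Esm-1 and diabetic saline, C1ra was at 0.18, Cd55 at 0.43, Cd59a at 0.14, Clu at -0.38, Colec12 at 0.39 and Cr1l at 0.29. With it between diabetic Esm-1 and non-diabetic saline, Cd55 was at 1.15, Cd59a at 0.42, Clu at -0.25 and Colec12 at 0.88, and between the saline groups Cd59a was at 0.28 and Colec12 at 0.49. With the proximal tubule term, C4b was at -0.19 and Cfb at -0.18 between the diabetic groups. Without both libraries with title numbers under 100, C3 was at -0.044 and Cd59a at 0.056 between the saline groups.

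Leaving out 1 library moved some differences across 0. Between the saline groups C3 ran from -0.046 to 0.53, Cd55 from -0.036 to 0.39 and Cd59a from -0.23 to 0.035. Between the diabetic groups C4b ran from -0.22 to 0.58, Cfb from -0.039 to 0.49 and Cr1l from -0.14 to 0.031. Between diabetic Esm-1 and non-diabetic saline Cd55 ran from -0.58 to 0.011. C1ra passed between the saline groups without the trend (adjusted p = 0.0266) and without diabetic saline replicate 4 (0.0449), Clu between the saline groups without non-diabetic saline replicate 3 (0.037), and C1ra between diabetic Esm-1 and non-diabetic saline without the trend (0.0476). The cause of these changes was not tested. The low read counts per gene and library limit all values of the 6 genes.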
